A study of Mus musculus with 12 samples.

Results

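The High and HiMed bins are the brightest and second brightest of 4 fractions of mouse circumvallate papilla epithelium sorted by a Sox2 reporter, and the comparison between them asks which programs switch at the last step of reporter brightness. It rests on 6 of the 12 libraries of the study, the 3 labelled High and the 3 labelled HiMed, taken by their labels. The comparison itself was chosen with earlier results of these data known. All 12 libraries came from Sox2GFP mice of 11 to 12 weeks, with 7 to 13 animals pooled for each replicate. The epithelium of the circumvallate papilla, a taste papilla of the posterior tongue, was loosened with collagenase, dispase and elastase, and single cells were sorted by green fluorescence into Low, MedLow, HiMed and High. Cells without fluorescence were discarded, so no reporter-negative cells were measured, and all groups carry the same reporter allele. Polyadenylated RNA was sequenced. The labels do not say whether the mice of one replicate were sorted together, and they name no batch, so p-values measure the spread between these pools.

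Taste buds are clusters of short-lived epithelial cells that are replaced throughout life from basal keratinocytes marked by Krt5 and Krt14. Type I cells are glia-like and clear transmitter, type II cells detect sweet, bitter and umami stimuli through G protein-coupled receptors, and type III cells detect sour stimuli and form synapses. Sox2 is a transcription factor of the HMG-box family that is required for basal cells to enter the taste lineage. Shh, a secreted Hedgehog ligand, marks the post-mitotic precursors at the base of the bud, and Hedgehog and Wnt signals are both known to act on renewal of the tongue epithelium. Around and between the buds the same basal cells form stratified keratinocytes that express suprabasal keratins such as Krt4 and Krt13.

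Totals ran from 42438007 to 53383663 estimated counts in High and from 36879213 to 55583897 in HiMed. High replicate 1 and HiMed replicate 1 had a count for 16911 and 16524 genes, against 18336 to 18891 in the other 4 libraries. HiMed replicate 1 also stood apart in its suprabasal keratins, with Krt13 at 3585 CPM (counts scaled to a common total) against 11743.9 and 8225 CPM in HiMed replicates 2 and 3. High replicate 3 had the largest values of many genes that were higher in High and the smallest of many that were lower, as the values below show. High replicate 2 stood out in transcripts of the von Ebner gland, the serous gland below the papilla. Lipf (gastric lipase) was at 0, 29.3 and 0.219 CPM in High against 0, 0 and 0 CPM in HiMed, and Bpifb1 at 0, 50.8 and 0.418 CPM in High against 0, 0.547 and 0.145 CPM in HiMed. Of other cell types, 0 of 3 tested leukocyte markers, 0 of 2 muscle markers and 0 of 3 melanocyte markers were called in either direction. Of 5 fibroblast markers, Dcn and Fbln1, matrix protein genes, were lower (-2.30 and -0.56 on the log2 scale) and Pdgfra, a growth factor receptor gene, was higher (1.57). The summed level of the list was 79.7 to 144 TPM (abundance per transcript length) in High and 179 to 201 TPM in HiMed. Single markers of endothelium (Tek) and of nerve (Uchl1) were lower, among 4 and 8 tested. Of 9 gland markers, Aqp5 (4.07) and Lyz2 (2.26) were higher and Ltf (-1.47) was lower. The summed level of the gland list was 714 to 1424 TPM in High and 1392 to 2268 TPM in HiMed, with ranges that overlapped. Several of these marker calls did not hold. That of Fbln1 was lost without HiMed replicate 1 or 2 or 3 (highest adjusted p = 0.0969) and in 6 other alternatives, and that of Pdgfra without High replicate 2 or HiMed replicate 2 (highest adjusted p = 0.093) and on the log2 scale of filtered TPM. That of Tek was lost on unfiltered log2(TPM + 1) (highest adjusted p = 0.0549). That of Ltf was lost without High replicate 1 or 2 or 3, or HiMed replicate 2 or 3 (highest adjusted p = 0.109) and that of Lyz2 without High replicate 3, or HiMed replicate 1 or 2 (highest adjusted p = 0.0867). Each of these marker counts moved by at most 1 when a single library was left out or the replicate number was a block. Whether these differences contribute to the results below was not tested, except where a value without one library is given. In sorted bulk RNA, fewer cells of a type and less RNA per cell cannot be told apart.

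The reporter and its gene came first as a check of the labels. Sox2 was at 378, 358 and 382 CPM in the High libraries and 168, 173 and 173 CPM in the HiMed libraries (log2 fold change 1.12 ± 0.07, adjusted p = 1.4e-07). Adjusted p here and below is from the edgeR quasi-likelihood test with Benjamini-Hochberg adjustment unless another test is named. The eGFP transcript was at 524, 536 and 555 CPM in the High libraries and 255, 224 and 259 CPM in the HiMed libraries (log2 fold change 1.13 ± 0.08, adjusted p = 3.0e-07). For both transcripts the 3 libraries of each bin lay close together and the bins were far apart. The error given after ± for a fold change is a standard error worked out from the fold change and the F statistic of its test. Each bin has n = 3 libraries. Of 17432 genes tested, 3886 were called at an adjusted p below 0.05 (22.3%), 1846 higher in High (10.6%) and 2040 lower (11.7%), and the median log2 fold change over all genes tested was -0.01. Higher genes were 47.5% of those called. On the log2(TPM + 1) scale with limma 2010 genes were called higher and 1058 lower (65.5% higher), and there the median of the genes shared with the main test lay 0.11 higher, so directions of small size depend on the scaling. Bins did not overlap for 35.3% of the genes tested. A change of 2-fold or more was reached by 787 of the higher (4.51%) and 708 of the lower genes (4.06%). Counts of list members below are to be read against these shares.

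**Figure D1:**
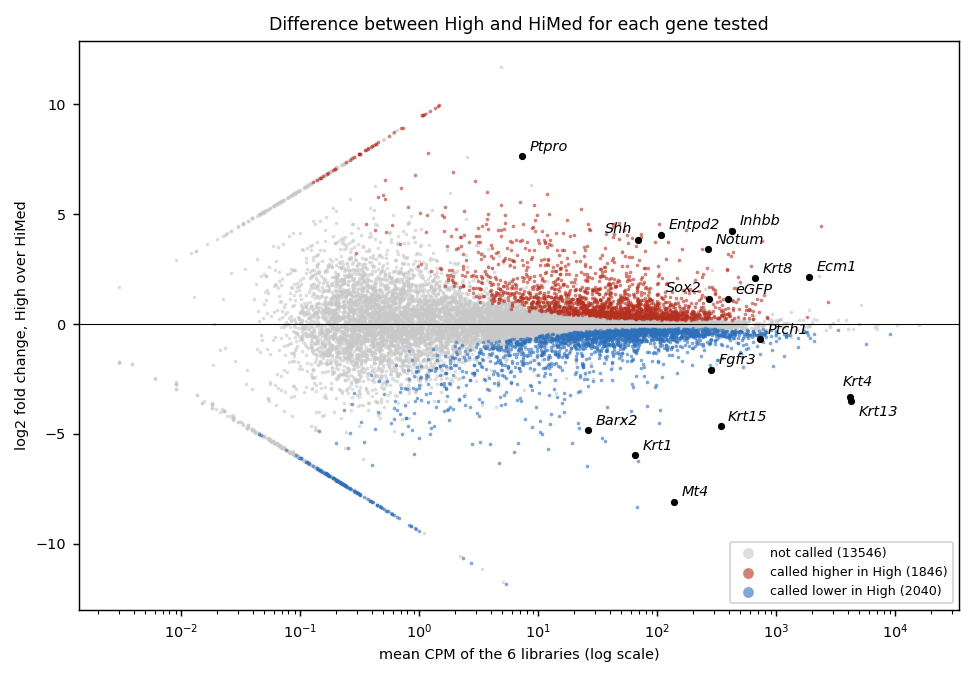
Difference between the bins for each of the 17432 genes tested: the horizontal axis is the mean CPM of the 6 libraries on a log scale, the vertical axis the log2 fold change of High over HiMed, and called genes are coloured by direction. Named points are Sox2, the reporter and genes described in the text; 1846 genes are coloured as higher and 2040 as lower. The oblique streaks are genes with no count in one of the bins.

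Structural genes of the taste bud epithelium were higher in High almost throughout. Of 10 listed genes, 9 rose and 0 fell, with a median log2 fold change of 1.65. Krt20, a keratin of differentiated simple epithelium, was at 381, 385 and 540.1 CPM in the High libraries and 40.7, 31.3 and 49.96 CPM in the HiMed libraries (log2 fold change 3.42 ± 0.34, adjusted p = 1.2e-04). Krt8, the simple-epithelial keratin that marks taste bud cells, was at 1019.5, 765 and 1469 CPM in High against 259, 226 and 280.04 CPM in HiMed (log2 fold change 2.09 ± 0.28, adjusted p = 6.6e-04). Its partner Krt18 was at 675, 504 and 853 CPM in High against 222, 195 and 227 CPM in HiMed (log2 fold change 1.66, adjusted p = 1.4e-04). Every High library exceeded every HiMed library for these 3 keratins, with High replicate 3 the highest of the 6. Krt7 (2.51), Krt19 (1.64), the potassium channel gene Kcnq1 (2.17), the adhesion molecule gene Epcam (1.10) and the claudin genes Cldn7 (1.62) and Cldn4 (1.11) also rose on the log2 scale. The exception was the claudin gene Cldn8, at 21.5, 27.7 and 30.1 CPM in the High libraries and 27.4, 26.5 and 27.5 CPM in the HiMed libraries, where the bins overlapped (log2 fold change -0.04, adjusted p = 0.885). Every one of these 9 rises was called again without any single library of either bin. None of them was called in the step-difference test, which asks whether the change from HiMed to High differs from the change from MedLow to HiMed and called 889 of the genes tested (5.10%), 1.85% with a positive and 3.25% with a negative difference. Without HiMed replicate 3 it called 464.

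Type I genes were split by 1 member. Entpd2, the ecto-ATPase that breaks down ATP released as transmitter, was at 183, 155 and 277 CPM in the High libraries and 10.9, 13.3 and 12.4 CPM in the HiMed libraries. In MedLow it was at 14.9, 16.2 and 13.6 CPM (log2 fold change 4.07 ± 0.22, adjusted p = 3.0e-07; step difference 4.36 ± 0.38, adjusted p = 1.2e-04). It was higher in each High library than in any of the other 9 libraries of the study. Kcnj1, an inwardly rectifying potassium channel gene of type I cells, was at 37.01, 34.8 and 80.7 CPM in High against 1.24, 2.57 and 2.70 CPM in HiMed (log2 fold change 4.55 ± 0.62, adjusted p = 5.4e-04). Oxtr, the oxytocin receptor gene, was at 16.3, 14.2 and 9.03 CPM in High against 0.444, 0.438 and 1.94 CPM in HiMed (log2 fold change 3.79 ± 0.81, adjusted p = 0.00779). Slc1a3, a glutamate transporter gene that is also named as a type I marker, went the other way at 0, 0.218 and 0 CPM in High against 0.0234, 1.81 and 1.68 CPM in HiMed, with bins that overlapped (log2 fold change -3.84, adjusted p = 0.04999). It was at 54.1, 48.5 and 46.6 CPM in Low. Its call rests on at most 1.81 CPM in HiMed and was lost with the replicate number as a block (adjusted p = 0.0866) and without High replicate 1 or 2 or 3, or HiMed replicate 2 or 3 (highest adjusted p = 0.152).

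Type II cells were represented by their receptor and transduction genes. Of 18 listed genes 11 fell and 1 rose, with a median log2 fold change of -1.76. Leaving out any 1 High or HiMed library brought the members called lower to 7 or 8. With the replicate number as a block they numbered 10. Plcb2, the phospholipase that couples taste receptors to calcium release, was at 52.8, 68.3 and 32.5 CPM in the High libraries and 288, 238 and 197 CPM in the HiMed libraries (log2 fold change -2.23 ± 0.48, adjusted p = 0.0112). Trpm5, the cation channel downstream of it, was at 18.8, 22.99 and 13.9 CPM in High against 68.1, 54.3 and 44.04 CPM in HiMed (log2 fold change -1.58, adjusted p = 0.0326). Gnat3, which encodes the taste G protein gustducin, was at 8.26, 16.3 and 10.8 CPM in High against 55.96, 41.3 and 34.5 CPM in HiMed (log2 fold change -1.89, adjusted p = 0.0135). The HiMed libraries were all above the High libraries for these 3 genes. The call of Trpm5 was lost with the block (adjusted p = 0.05002) and without any 1 of the 6 libraries (highest adjusted p = 0.126). That of Gnat3 was lost without High replicate 1 or 3 (highest adjusted p = 0.0657). Tas1r3, the shared subunit of the sweet and umami receptors, was at 1.24, 1.74 and 2.21 CPM in High against 16.004, 7.49 and 11.2 CPM in HiMed (log2 fold change -2.74 ± 0.38, adjusted p = 9.8e-05). The sweet receptor gene Tas1r2 was at 1.17, 1.31 and 1.06 CPM in High against 5.68, 6.21 and 7.62 CPM in HiMed (log2 fold change -2.46, adjusted p = 3.6e-04). The bitter receptor gene Tas2r118 was at 0.473, 0 and 0.498 CPM in High against 3.32, 3.12 and 2.88 CPM in HiMed (log2 fold change -3.27, adjusted p = 0.0196). With the 6 High and HiMed libraries alone Tas2r118 was not called (highest adjusted p = 0.0703). Rgs21, a regulator of G protein signalling in taste cells, was at 1.87, 2.59 and 2.67 CPM in High against 28.3, 23.3 and 15.4 CPM in HiMed (log2 fold change -3.23, adjusted p = 5.2e-04). In these 4 genes every HiMed library again lay above every High library. The one member that rose was Gna14, a G protein alpha subunit gene, at 30.3, 24.5 and 47.3 CPM in the High libraries and 6.45, 6.95 and 8.53 CPM in the HiMed libraries (log2 fold change 2.22 ± 0.39, adjusted p = 0.00141).

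Type III genes divided evenly, 4 higher and 4 lower among 12 tested. For higher members the count was 2 without High replicate 3 and 2 without HiMed replicate 1. Otop1, the proton channel of sour taste, was at 116, 75.4 and 173 CPM in the High libraries and 9.23, 8.59 and 13.5 CPM in the HiMed libraries (log2 fold change 3.54 ± 0.42, adjusted p = 3.0e-04). Pkd2l1, the channel gene by which sour cells are usually marked, was at 6.06, 7.45 and 9.84 CPM in High against 26.2, 24.998 and 26.8 CPM in HiMed (log2 fold change -1.74 ± 0.22, adjusted p = 3.9e-05). Its partner Pkd1l3 was at 17.4, 11.4 and 30.6 CPM in High against 76.7, 76.6 and 81.7 CPM in HiMed (log2 fold change -1.98, adjusted p = 0.00462). Otop1 and Pkd2l1 thus moved in opposite directions with no overlap between the bins in either gene. Ddc, which makes serotonin, was at 1.76, 2.34 and 2.77 CPM in High against 11.3, 7.002 and 6.63 CPM in HiMed (log2 fold change -1.86, adjusted p = 0.00565). Snap25, a presynaptic fusion protein gene, was at 1.37, 1.61 and 2.95 CPM in High against 8.06, 6.10 and 5.99 CPM in HiMed (log2 fold change -1.76, adjusted p = 0.00133). Cacna1a, a presynaptic calcium channel gene, was at 49.6, 48.8 and 74.8 CPM in High against 20.3, 26.4 and 27.3 CPM in HiMed (log2 fold change 1.23, adjusted p = 0.00435). The falls of Ddc and Snap25 and the rise of Cacna1a likewise left no overlap between the bins. In the fits on log2 TPM the calls of Ddc (highest adjusted p = 0.181) and Cacna1a (highest adjusted p = 0.138) were lost. Kcnj2, a potassium channel gene of acid sensing, was at 25.4, 26.2 and 33.2 CPM in High against 16.2, 21.9 and 19.6 CPM in HiMed (log2 fold change 0.55, adjusted p = 0.0276). Its call was lost without High replicate 3, or HiMed replicate 1 or 3 (highest adjusted p = 0.125). In the wider list of vesicle release, 2 of 32 genes rose and 5 fell. The share called, 21.9%, was near the 22.3% of all genes tested, so the list as a whole did not stand out. The count of lower members was 3 without High replicate 2 and 3 without High replicate 3. Cadps, which primes dense-core vesicles, rose from 9.70, 5.91 and 7.19 CPM in the HiMed libraries to 112, 84.1 and 149 CPM in the High libraries (log2 fold change 3.92 ± 0.41, adjusted p = 1.0e-04). Chgb, a granule protein gene, fell (log2 fold change -2.32, adjusted p = 0.00464). Its call was lost on log2(TPM + 1) and with the 6 High and HiMed libraries alone (highest adjusted p = 0.0794).

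**Figure D2:**
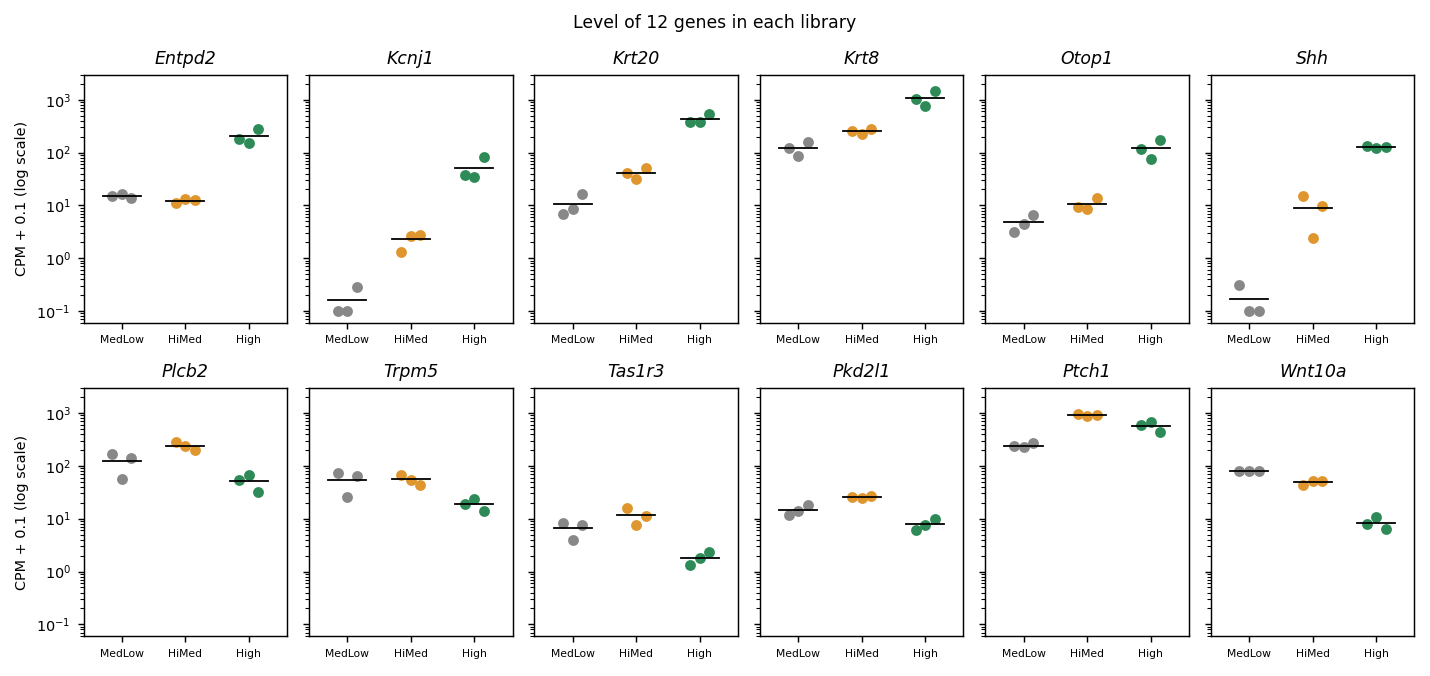
CPM of 12 genes in each library of the MedLow, HiMed and High bins, on a log axis after adding 0.1 CPM; each point is 1 library and the bar is the bin mean. Entpd2, Kcnj1, Krt20, Krt8, Otop1 and Shh are higher in all 3 High libraries than in any HiMed library, and Plcb2, Trpm5, Tas1r3, Pkd2l1, Ptch1 and Wnt10a are lower.

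Among factors of the taste lineage, 6 of 12 rose and 1 fell. Shh was at 135, 123 and 126 CPM in the High libraries and 15.1, 2.30 and 9.56 CPM in the HiMed libraries (log2 fold change 3.83 ± 0.61, adjusted p = 0.00214). In MedLow it was at 0.206, 0 and 0 CPM. Prox1, a homeobox gene of taste bud cells, was at 137, 109.7 and 181 CPM in High against 22.7, 20.6 and 28.7 CPM in HiMed (log2 fold change 2.57 ± 0.37, adjusted p = 8.7e-04). Hes6, a transcriptional regulator of the Hes family, was at 384, 392.5 and 374 CPM in High against 227, 184 and 193 CPM in HiMed (log2 fold change 0.93 ± 0.11, adjusted p = 1.7e-05). Its rise over HiMed was smaller than the rise before it (step difference -1.32 ± 0.18, adjusted p = 5.5e-04). Six4 (0.997) and Foxa2 (0.79), both transcription factor genes, were higher by these log2 fold changes. Nkx2-2, a homeobox gene of type III cells, fell, at 1.80, 3.23 and 1.43 CPM in High against 6.05, 9.96 and 6.39 CPM in HiMed (log2 fold change -1.79 ± 0.35, adjusted p = 0.00178). The fits on log2 TPM did not call Nkx2-2 (highest adjusted p = 0.191). The promoter windows of Foxa2, Hes6 and Prox1 that hold an HMG-box core are shown because these genes rose together with Sox2, whose product binds such cores. The windows are the 250 bases before the start site, from RefSeq on build GRCm38.p6, and capitals mark the cores ACAAAG and ACAATG on either strand.
Foxa2, chr2:148045465-148045714, minus strand: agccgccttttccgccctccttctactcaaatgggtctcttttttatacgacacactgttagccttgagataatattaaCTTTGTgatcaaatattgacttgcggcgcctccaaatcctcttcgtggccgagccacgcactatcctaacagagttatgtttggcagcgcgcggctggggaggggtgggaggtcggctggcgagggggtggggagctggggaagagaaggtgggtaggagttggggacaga
Hes6, chr1:91413223-91413472, minus strand: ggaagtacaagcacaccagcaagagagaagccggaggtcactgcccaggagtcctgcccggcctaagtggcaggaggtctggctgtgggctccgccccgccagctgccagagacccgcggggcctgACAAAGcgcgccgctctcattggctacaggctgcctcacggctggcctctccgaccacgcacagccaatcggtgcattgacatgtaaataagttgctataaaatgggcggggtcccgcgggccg
Hes6, chr1:91414039-91414288, minus strand: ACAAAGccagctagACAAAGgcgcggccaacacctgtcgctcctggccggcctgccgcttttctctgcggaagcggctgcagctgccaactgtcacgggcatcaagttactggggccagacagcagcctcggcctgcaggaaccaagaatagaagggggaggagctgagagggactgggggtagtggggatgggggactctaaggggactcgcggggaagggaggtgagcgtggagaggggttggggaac
Prox1, chr1:190169516-190169765, minus strand: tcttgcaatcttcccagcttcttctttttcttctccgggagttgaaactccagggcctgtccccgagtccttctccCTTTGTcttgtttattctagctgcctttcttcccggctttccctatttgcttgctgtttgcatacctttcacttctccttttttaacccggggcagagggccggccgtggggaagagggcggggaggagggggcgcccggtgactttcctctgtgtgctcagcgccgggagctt
Over all promoter windows of that length, 25.2% held at least 1 core, against 18.2% of the windows of tested genes, 20.2% of those of genes higher in High and 17.3% of those of genes lower in High. The other windows of Foxa2 and Prox1 and the windows of Six4 and Nkx2-2 held no core, and that of Foxa1, which was not called (log2 fold change 0.25, adjusted p = 0.0761), held 3. A match describes these letters only, and no binding was measured.

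Within the Sox family, 4 of 14 tested genes rose and 4 fell. Beside Sox2, Sox21 was at 441, 354 and 535 CPM in High against 164, 163 and 185 CPM in HiMed (log2 fold change 1.38 ± 0.13, adjusted p = 7.1e-06). Sox13 was at 235, 223 and 294 CPM in High against 96.4, 79.8 and 98.04 CPM in HiMed (log2 fold change 1.46, adjusted p = 3.3e-04). Sox4 was at 826, 651 and 829 CPM in High against 565, 424 and 549 CPM in HiMed (log2 fold change 0.58, adjusted p = 0.00156). Those that fell were Sox15 (-1.17), Sox7 (-1.09), Sox6 (-0.78) and Sox9 (-0.39), on the log2 scale. The call of Sox9 was lost without High replicate 2 or 3, or HiMed replicate 2 or 3 (highest adjusted p = 0.0971). It was also lost in all 3 fits on log2 TPM (highest adjusted p = 0.249). The rise of Sox21 differed from the change from MedLow to HiMed (step difference 1.31 ± 0.23, adjusted p = 0.00439). The rise of Sox2 itself was not called as different from the step before it (0.31 ± 0.12, adjusted p = 0.2).

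The Hedgehog pathway moved in opposite directions at its ligand and at its targets. Of 14 genes tested, 2 rose and 7 fell. The ligand gene Shh rose as given above. Gli1, a transcription factor that is also a direct target and a common readout of the pathway, was at 159, 168 and 95.3 CPM in the High libraries and 306, 276 and 254 CPM in the HiMed libraries (log2 fold change -0.99 ± 0.17, adjusted p = 0.00122). Ptch1, the Shh receptor and likewise a target, was at 603, 666 and 429 CPM in the High libraries and 957, 870.3 and 900.2 CPM in the HiMed libraries (log2 fold change -0.68 ± 0.15, adjusted p = 0.0065). The HiMed libraries were all above the High libraries for both genes, with High replicate 3 the lowest. They were also lower in MedLow than in HiMed, Gli1 at 180.1, 160 and 158 CPM and Ptch1 at 237, 223 and 268 CPM. The step difference was called for both (Gli1 -1.73 ± 0.28, adjusted p = 0.00405; Ptch1 -2.59 ± 0.26, adjusted p = 1.4e-04). Gli2 (log2 fold change -1.04, adjusted p = 6.2e-04) and the inhibitor gene Sufu (log2 fold change -0.73, adjusted p = 5.0e-04) also fell. The calls of Sufu (highest adjusted p = 0.0981) and Ptch1 (highest adjusted p = 0.0954) were lost on log2(TPM + 0.1) and on unfiltered log2(TPM + 1). The co-receptor gene Boc, which was higher in Low (112, 109 and 98.97 CPM), fell too (log2 fold change -1.27, adjusted p = 3.0e-06). Gas1, a co-receptor gene that strengthens the response to Shh, was the other gene that rose, from 15.2, 30.1 and 23.2 CPM in the HiMed libraries to 104, 62.7 and 102 CPM in the High libraries (log2 fold change 1.97 ± 0.25, adjusted p = 2.6e-04). It was at 89.5, 88.3 and 90.9 CPM in MedLow, so its lowest values lay in HiMed (step difference 3.95 ± 0.45, adjusted p = 0.00104).

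Several Wnt feedback genes rose and several Wnt ligand genes fell. Axin2, the standard target gene and negative regulator of the pathway, was at 70.2, 69.2 and 88.4 CPM in the High libraries and 21.7, 16.6 and 20.4 CPM in the HiMed libraries (log2 fold change 1.95 ± 0.15, adjusted p = 6.0e-07). In MedLow it had been at 23.4, 24.9 and 19.6 CPM (step difference 2.16 ± 0.27, adjusted p = 2.7e-04). Notum, a secreted enzyme that inactivates Wnt proteins, was at 465, 419.5 and 581 CPM in the High libraries and 57.1, 34.5 and 47.8 CPM in the HiMed libraries (log2 fold change 3.39 ± 0.23, adjusted p = 4.4e-06). Nkd1, an intracellular inhibitor, was at 107, 73.6 and 131 CPM in High against 15.7, 10.3 and 11.9 CPM in HiMed (log2 fold change 3.04 ± 0.39, adjusted p = 3.6e-04). Rnf43, a ligase that removes Wnt receptors, was at 129.5, 95.7 and 132 CPM in High against 56.3, 47.9 and 58.9 CPM in HiMed (log2 fold change 1.13 ± 0.12, adjusted p = 7.7e-06). No High library of these 4 genes overlapped with a HiMed library. Apcdd1 (log2 fold change 1.45, adjusted p = 3.1e-05) and the secreted inhibitor gene Dkk2 (log2 fold change 4.15, adjusted p = 0.00657) rose too. The secreted inhibitor genes Sostdc1 (log2 fold change -1.97, adjusted p = 1.3e-05) and Sfrp1 (log2 fold change -1.78, adjusted p = 3.3e-06) fell. In all, 6 of 15 feedback and inhibitor genes rose and 3 fell.

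Of 37 ligand, receptor and nuclear factor genes of the Wnt pathway, 11 rose and 8 fell. Wnt10a, the ligand gene needed for tongue papillae, was at 7.68, 10.6 and 6.24 CPM in the High libraries and 44.1, 52.2 and 52.3 CPM in the HiMed libraries (log2 fold change -2.60 ± 0.15, adjusted p = 9.7e-08). Wnt4 was at 61.2, 88.999 and 55.4 CPM in High against 163, 219.7 and 165 CPM in HiMed (log2 fold change -1.41, adjusted p = 1.3e-04). Wnt3a was at 3.33, 4.39 and 2.35 CPM in High against 12.6, 11.05 and 9.13 CPM in HiMed (log2 fold change -1.70, adjusted p = 9.8e-05). The ligand gene Wnt11 went the other way, at 52.8, 56.7 and 53.6 CPM in High against 20.8, 22.5 and 27.6 CPM in HiMed (log2 fold change 1.20, adjusted p = 2.4e-04). Of the ligand genes, then, the first 3 were lower in every High library and Wnt11 was higher in every one. Fzd4, a Wnt receptor gene, was at 85.4, 67.04 and 134 CPM in the High libraries and 10.7, 10.6 and 12.1 CPM in the HiMed libraries (log2 fold change 3.10 ± 0.26, adjusted p = 7.1e-06). Lef1, a nuclear factor of the pathway, was at 98.8, 79.3 and 94.7 CPM in High against 47.1, 24.7 and 33.2 CPM in HiMed (log2 fold change 1.38, adjusted p = 0.00158). Lgr6, a receptor for R-spondins and a marker of taste progenitors, was at 676, 639.9 and 668 CPM in High against 356, 248.7 and 306 CPM in HiMed (log2 fold change 1.12 ± 0.15, adjusted p = 1.5e-04). Its relative Lgr5 was at 178, 193 and 155 CPM in High against 304, 217 and 197 CPM in HiMed. The bins did not overlap in Lgr5, but the difference was not called (log2 fold change -0.45, adjusted p = 0.181).

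**Figure D3:**
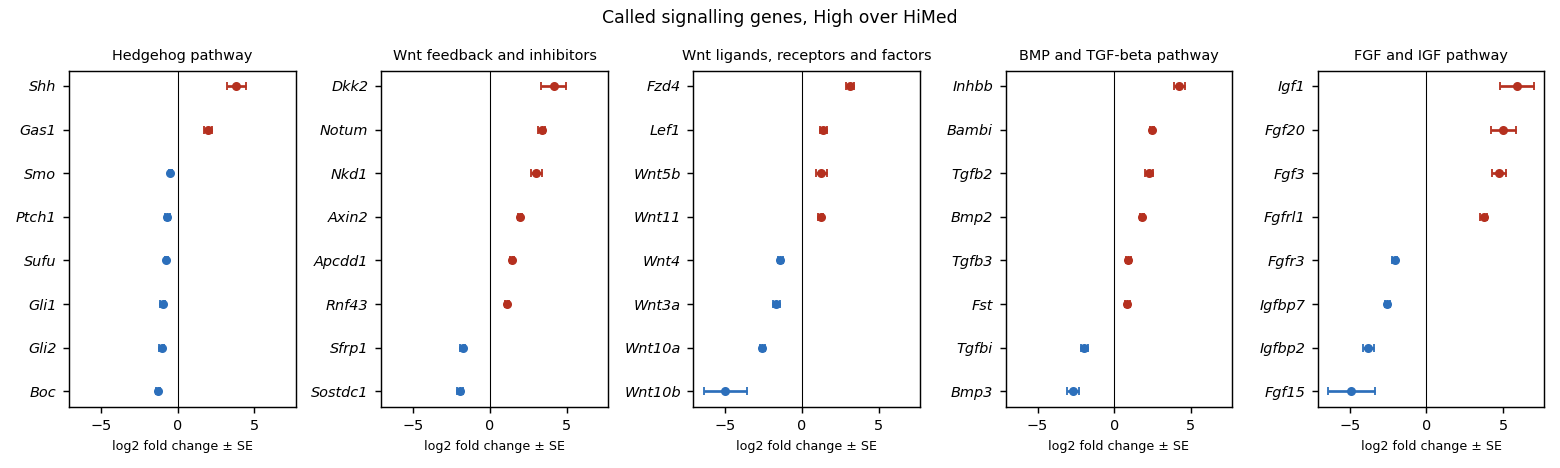
Log2 fold change of High over HiMed with its standard error for the called members of 5 signalling lists, at most 8 a list by size among those reported; the vertical line marks no difference. Shh, Gas1, the Wnt feedback genes Notum, Nkd1 and Axin2, and Inhbb lie to the right, and Gli1, Ptch1, Wnt10a and Fgfr3 to the left.

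In the BMP and TGF-beta pathway, 10 of 34 genes rose and 2 fell. Members called lower numbered 4 with the replicate number as a block. Inhbb, which encodes a subunit of activin B, was at 722, 529 and 1196 CPM in the High libraries and 32.1, 38.6 and 58.04 CPM in the HiMed libraries (log2 fold change 4.25 ± 0.35, adjusted p = 4.2e-05). It rose more than in the step before (step difference 3.32 ± 0.59, adjusted p = 0.013). Bmp2, a BMP ligand gene, was at 135, 126 and 205 CPM in High against 42.5, 45.5 and 44.3 CPM in HiMed (log2 fold change 1.81 ± 0.15, adjusted p = 3.8e-06). Bambi, a decoy receptor gene, was at 70.8, 60.3 and 79.6 CPM in High against 13.7, 13.02 and 11.8 CPM in HiMed (log2 fold change 2.45 ± 0.16, adjusted p = 1.3e-07). Tgfb2, a TGF-beta ligand gene, was at 25.4, 25.9 and 24.3 CPM in High against 6.45, 2.90 and 6.36 CPM in HiMed (log2 fold change 2.26, adjusted p = 2.5e-05). All 3 had lower values in HiMed than in Low, where Bmp2 was at 161, 142 and 137 CPM, Bambi at 40.3, 47.8 and 48.1 CPM and Tgfb2 at 19.2, 24.4 and 28.9 CPM. Tgfb3 (log2 fold change 0.91, adjusted p = 0.0022) and the activin antagonist gene Fst (log2 fold change 0.85, adjusted p = 0.00187) also rose. Bmp3 (log2 fold change -2.69, adjusted p = 1.2e-04) and Tgfbi, a matrix protein gene induced by TGF-beta (log2 fold change -1.96, adjusted p = 1.2e-04), were the 2 that fell; Bmp3 was not called on unfiltered log2(TPM + 1) (highest adjusted p = 0.0693).

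Notch genes divided into 4 that rose and 7 that fell among 22. For higher members the count was 2 without High replicate 3. The receptor gene Notch1 was at 244.7, 219 and 179 CPM in High against 383, 419.7 and 386 CPM in HiMed (log2 fold change -0.89 ± 0.10, adjusted p = 1.2e-05). The ligand gene Jag2 was at 122, 124 and 65.3 CPM in High against 272, 247 and 238 CPM in HiMed (log2 fold change -1.28, adjusted p = 5.9e-04). The ligand gene Dll1 (log2 fold change -1.11, adjusted p = 1.5e-04), the inhibitor gene Dlk2 (log2 fold change -1.60, adjusted p = 0.00156) and the target gene Nrarp (log2 fold change -0.68, adjusted p = 0.0138) fell as well. Hey1, a target gene that encodes a repressor, was at 143, 115 and 107 CPM in High against 71.5, 71.2 and 64.9 CPM in HiMed (log2 fold change 0.82 ± 0.16, adjusted p = 0.00203). It was not called on log2(TPM + 0.1) or unfiltered log2(TPM + 1) (highest adjusted p = 0.0789). Its relative Heyl was at 45.5, 29.4 and 55.8 CPM in High against 20.98, 10.7 and 13.6 CPM in HiMed (log2 fold change 1.53, adjusted p = 0.0163). The receptor gene Notch4 was at 9.63, 16.4 and 16.7 CPM in High against 1.17, 1.26 and 1.43 CPM in HiMed (log2 fold change 3.47, adjusted p = 0.00161). The calls of Heyl and Nrarp were lost when single libraries were left out, Heyl without High replicate 3, or HiMed replicate 2 or 3 (highest adjusted p = 0.0756) and Nrarp without High replicate 3 (highest adjusted p = 0.0712).

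FGF and IGF genes moved in both directions. Of 38 tested, 8 rose and 15 fell; on the TPM scale the median of the list changed sign, since it moved from -0.30 to 0.02. Fgf3, a secreted ligand gene, was at 17.96, 13.1 and 23.9 CPM in High against 0.958, 0.328 and 0.761 CPM in HiMed (log2 fold change 4.73 ± 0.46, adjusted p = 2.9e-05). Fgf20 was at 22.6, 19.1 and 29.9 CPM in High against 1.21, 0.137 and 0.851 CPM in HiMed (log2 fold change 4.998 ± 0.82, adjusted p = 0.00138). Igf1, insulin-like growth factor 1, was at 17.5, 18.7 and 34.2 CPM in High against 0, 0.465 and 0.67 CPM in HiMed (log2 fold change 5.92 ± 1.10, adjusted p = 0.00702). All 3 ligand genes were at 1.22 CPM or less in every HiMed library. Fgfrl1, an FGF receptor without a kinase domain, was at 162, 137 and 236 CPM in High against 11.9, 14.2 and 14.4 CPM in HiMed (log2 fold change 3.72 ± 0.20, adjusted p = 1.8e-07; step difference 3.38 ± 0.35, adjusted p = 1.6e-04). Fgfr3, a signalling receptor gene, was at 113, 142 and 71.7 CPM in the High libraries and 487, 456 and 441 CPM in the HiMed libraries (log2 fold change -2.08 ± 0.19, adjusted p = 1.7e-05). It was at 498, 493 and 452 CPM in MedLow (step difference -2.02 ± 0.30, adjusted p = 0.00313). Its change from MedLow to HiMed was not called (log2 fold change -0.06 ± 0.18, adjusted p = 0.9002), and every High library lay below every library of both bins. Of the IGF-binding protein genes, Igfbp2 was at 4.50, 5.71 and 5.10 CPM in High against 37.8, 108 and 66.6 CPM in HiMed (log2 fold change -3.79, adjusted p = 7.5e-05). Igfbp7 was at 14.2, 14.6 and 8.09 CPM in High against 79.9, 67.5 and 68.2 CPM in HiMed (log2 fold change -2.55, adjusted p = 6.8e-07). In the EGF pathway, the ligand genes Areg (log2 fold change 1.04, adjusted p = 0.0125) and Tgfa (log2 fold change 0.60, adjusted p = 0.0137) and the receptor gene Erbb3 (log2 fold change 0.27, adjusted p = 0.0148) rose. The receptor genes Egfr (log2 fold change -0.80, adjusted p = 9.7e-06) and Erbb2 (log2 fold change -0.40, adjusted p = 0.00389) and the ligand gene Nrg1 (log2 fold change -1.21, adjusted p = 0.00462) fell. The call of Areg was lost without High replicate 3 or HiMed replicate 2 (highest adjusted p = 0.0583), that of Tgfa without High replicate 3 or HiMed replicate 2 (highest adjusted p = 0.0669) and that of Erbb3 without High replicate 3 or HiMed replicate 1 (highest adjusted p = 0.0582). That of Erbb2 was lost on filtered TPM (highest adjusted p = 0.0562). In all, 4 of 14 rose and 3 fell. The count of higher members was 0 without High replicate 3, 2 without HiMed replicate 1 and 1 without HiMed replicate 2.

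Genes of nerve growth and axon guidance, whose products taste buds use to attract and hold nerve fibres, moved both ways: 15 of 68 rose and 18 fell. Members called higher numbered 9 without HiMed replicate 2. Robo1, a receptor gene for Slit proteins, was at 462, 406 and 511 CPM in High against 177, 141 and 153 CPM in HiMed (log2 fold change 1.55 ± 0.09, adjusted p = 1.1e-07). Among semaphorins, secreted or membrane-bound guidance cues, Sema5a was at 458, 368 and 506 CPM in High against 178, 99.99 and 140.03 CPM in HiMed (log2 fold change 1.67, adjusted p = 3.6e-04). Sema6a was at 20.3, 20.5 and 24.1 CPM in High against 4.67, 7.14 and 6.79 CPM in HiMed (log2 fold change 1.80, adjusted p = 5.8e-05). Sema3e was at 16.2, 11.6 and 29.1 CPM in High against 0.514, 1.31 and 2.55 CPM in HiMed (log2 fold change 3.68, adjusted p = 1.4e-04). All 4 of these guidance genes were higher in every High library than in any HiMed library. They were taken from the 15 members of the list that rose, and 18 others fell. Ntrk2, the receptor gene for the neurotrophin BDNF, was at 1.69, 1.65 and 2.53 CPM in High against 13.1, 18.3 and 15.7 CPM in HiMed (log2 fold change -3.001 ± 0.16, adjusted p = 6.3e-08), after 109, 119 and 99.1 CPM in MedLow. Ntrk3, a related receptor gene, fell too (log2 fold change -3.45, adjusted p = 0.00716). With the 6 High and HiMed libraries alone Ntrk3 was not called (highest adjusted p = 0.119). Bdnf itself was at 139, 115 and 139 CPM in High against 110.3, 76.99 and 91.8 CPM in HiMed (log2 fold change 0.49, adjusted p = 0.0186). That call was lost without High replicate 1 or 3, or HiMed replicate 2 or 3 (highest adjusted p = 0.0845).

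Of 54 potassium channel genes tested, 15 fell and 7 rose, so the rises described next belong to the smaller group. Members called lower numbered 10 without High replicate 3 and ran from 6 to 16 over the alternatives. Kcnj5, an inward rectifier gene, was at 85.7, 63.6 and 129 CPM in High against 1.92, 4.29 and 5.32 CPM in HiMed (log2 fold change 4.58 ± 0.67, adjusted p = 0.00126). Kcnb2 was at 9.66, 7.09 and 12.9 CPM in High against 0.257, 0.957 and 0.29 CPM in HiMed (log2 fold change 4.31, adjusted p = 6.9e-04). Kcnc2 was at 28.5, 33.2 and 25.98 CPM in High against 6.45, 2.95 and 4.71 CPM in HiMed (log2 fold change 2.63, adjusted p = 0.00572), the last 2 being voltage-gated. Kcnj11, the inward rectifier gene of ATP-sensitive channels, was at 0.293, 0.544 and 0.299 CPM in High against 4.32, 2.76 and 1.94 CPM in HiMed (log2 fold change -2.98, adjusted p = 0.00505). The fits on log2 TPM did not call it (highest adjusted p = 0.231). The first 3 were higher in every High library than in any HiMed library, and Kcnj11 was lower in every one. The median of the list, 0.10, changed sign under other filters and tests and without single libraries.

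The suprabasal keratins of stratified keratinocytes were among the genes that fell. Of 23 suprabasal genes, 12 fell and 3 rose, with a median log2 fold change of -1.16. Krt13 was at 485, 874 and 689 CPM in the High libraries and 3585, 11744 and 8225 CPM in the HiMed libraries (log2 fold change -3.52 ± 0.41, adjusted p = 3.0e-04). Krt4, its partner, was at 665, 941 and 681 CPM in the High libraries and 3639.8, 10727 and 8259.8 CPM in the HiMed libraries (log2 fold change -3.31 ± 0.35, adjusted p = 1.7e-04). In both genes the lowest HiMed library, replicate 1, was still several times the highest High library. Krt1, a keratin of cornifying epithelium, was at 0.72, 4.12 and 1.12 CPM in High against 69.04, 181 and 136 CPM in HiMed (log2 fold change -5.98 ± 0.63, adjusted p = 2.4e-04). Dsg1a, a desmosomal cadherin gene of upper layers, was at 8.76, 18.2 and 12.4 CPM in High against 98.1, 285 and 207 CPM in HiMed (log2 fold change -3.90, adjusted p = 4.8e-04). Dsc1 (log2 fold change -5.31, adjusted p = 0.00534), Klk8, a protease gene of shedding cells (log2 fold change -2.18, adjusted p = 2.7e-04), and Fabp5, a fatty acid carrier gene (log2 fold change -1.99, adjusted p = 0.00159), fell with them. The call of Dsc1 was lost with limma on voom and with the 6 High and HiMed libraries alone (highest adjusted p = 0.153). For higher members the count was 1 without High replicate 2 and 1 without High replicate 3. Without HiMed replicate 1, whose suprabasal keratins stood apart, 14 of the list were called lower. Ecm1, a secreted matrix protein gene placed in the same list, had the largest gain in TPM of the called genes with a symbol other than a clone name, at 4252 ± 1317 TPM in High and 906 ± 235 TPM in HiMed (mean ± SD). Its level was 2688, 2468 and 4182 CPM in High against 517, 695 and 891 CPM in HiMed (log2 fold change 2.15 ± 0.31, adjusted p = 0.00109).

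The cornified envelope list gave 13 lower and 1 higher of 41. The count of lower members was 6 without High replicate 1, 4 without High replicate 2, 4 without High replicate 3, 6 without HiMed replicate 2 and 5 without HiMed replicate 3. Members called higher numbered 4 with the replicate number as a block, 0 without High replicate 2, 0 without High replicate 3, 0 without HiMed replicate 1 and 0 without HiMed replicate 2. Sprr1b, a cross-linked envelope protein gene, was at 0.518, 2.19 and 1.85 CPM in High against 10.7, 34.3 and 39.8 CPM in HiMed (log2 fold change -4.19, adjusted p = 0.00117). The summed level of the list ran the other way, from 43874 to 57302 TPM in High and from 31794 to 39487 TPM in HiMed. The near-identical genes Sprr2a1, Sprr2a2 and Sprr2a3 were all higher in every High library than in any HiMed library. Sprr2a2 was at 3235, 4496 and 3445 CPM in High against 730.4, 775 and 976 CPM in HiMed (log2 fold change 2.17, adjusted p = 0.151), and Sprr2a3 was not called either (log2 fold change 2.46, adjusted p = 0.111). Sprr2a1 was called (log2 fold change 1.65, adjusted p = 0.0246) but not without High replicate 2 or 3, or HiMed replicate 1 or 2 (highest adjusted p = 0.0762). How reads were divided among the copies is uncertain. Serpins, protease inhibitors of which many are made in stratified epithelium, gave 11 lower and 1 higher of 32. Serpinb3a was at 0, 0.562 and 0.638 CPM in High against 53.3, 202 and 151 CPM in HiMed (log2 fold change -8.33 ± 0.85, adjusted p = 2.0e-04). Serpinb12 was at 0.72, 2.23 and 2.37 CPM in High against 51.9, 199.6 and 158 CPM in HiMed (log2 fold change -6.24 ± 0.70, adjusted p = 3.6e-04). The call of Serpinb3a was lost with limma on voom (highest adjusted p = 0.114). The one that rose was Serpina1e, of the alpha-1 antitrypsin group. It was at 167, 107 and 323 CPM in High against 4.25, 6.32 and 14.5 CPM in HiMed (log2 fold change 4.56, adjusted p = 0.00108). For higher members the count was 2 with the replicate number as a block and 2 without High replicate 1. Serpinb3a to Serpinb3c and the Serpina1 genes are families of near-identical copies, so their shares are uncertain. Mt4, the metallothionein of stratified squamous epithelium, fell to 1.54 CPM or less, at 0.36, 1.54 and 1.04 CPM in High against 144, 446 and 238 CPM in HiMed (log2 fold change -8.10 ± 0.60, adjusted p = 2.8e-05). Of 19 epidermal transcription factor genes, 9 fell and 2 rose. The count of higher members was 1 without High replicate 1, 1 without High replicate 3, 1 without HiMed replicate 1 and 1 without HiMed replicate 2. Elf3, an epithelial factor, was at 1000.4, 717 and 1131 CPM in High against 469, 418 and 425 CPM in HiMed (log2 fold change 1.12, adjusted p = 1.9e-04). Trp63, the master regulator of stratified epithelium, was at 494, 542 and 325 CPM in High against 938, 884 and 938 CPM in HiMed (log2 fold change -1.02, adjusted p = 1.1e-04).

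Of 11 progenitor markers, 7 fell and 1, Lgr6, rose. Krt15, a basal keratin gene, was at 20.98, 35.9 and 22.2 CPM in the High libraries and 450.2, 926 and 601 CPM in the HiMed libraries (log2 fold change -4.64 ± 0.30, adjusted p = 4.8e-06). It was at 4789, 5388 and 4479 CPM in MedLow. Krt14 was at 401, 469 and 332 CPM in High against 1297, 1502 and 1678 CPM in HiMed (log2 fold change -1.90 ± 0.13, adjusted p = 1.9e-07). Krt5 was at 4091, 4797 and 2988 CPM in High against 7301, 7574 and 7548 CPM in HiMed (log2 fold change -0.92 ± 0.13, adjusted p = 1.1e-04). High replicate 3 was the lowest library for Krt14, Krt5 and Trp63. Lrig1, a growth factor receptor inhibitor gene of quiescent stem cells, was at 90.6, 77.7 and 76.4 CPM in High against 146, 128 and 124 CPM in HiMed (log2 fold change -0.71, adjusted p = 6.0e-04). On unfiltered log2(TPM + 1) it was not called (highest adjusted p = 0.0543). Hemidesmosome genes, which tie basal cells to the basement membrane, gave 5 lower and 2 higher of 16, led by Dst (log2 fold change -1.10, adjusted p = 3.1e-07), Col17a1 (log2 fold change -1.04, adjusted p = 5.5e-05) and Itga3 (log2 fold change -0.87, adjusted p = 1.3e-06).

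**Figure D4:**
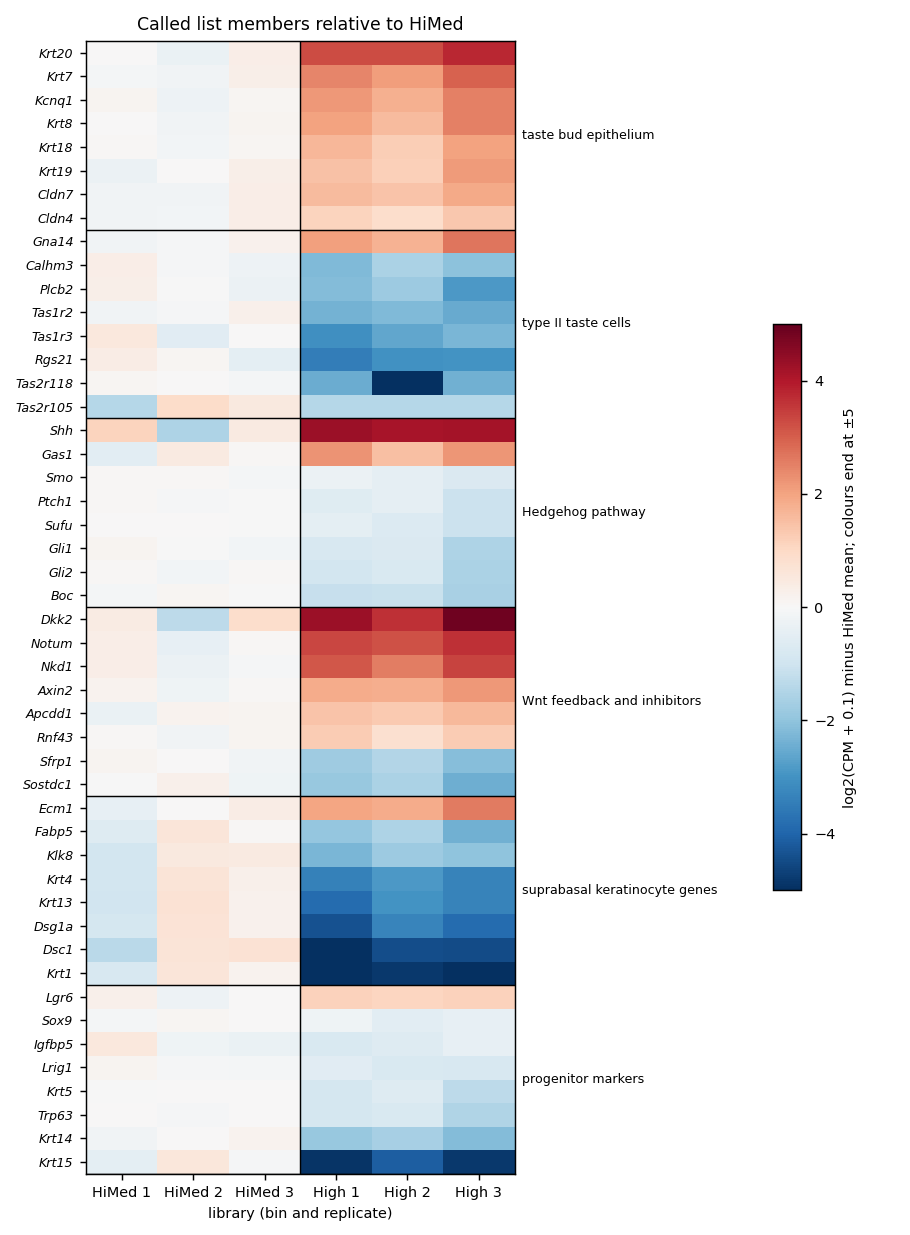
Level of 48 called list members (at most 8 a list by size among those reported) in the 6 libraries, as the log2 of CPM plus 0.1 minus the mean of the 3 HiMed libraries; rows are grouped by list and red is higher than HiMed, blue lower. Within HiMed, replicate 1 is lower than replicates 2 and 3 in the suprabasal rows, and within High, replicate 3 is the highest in each of the 8 rows of the taste bud epithelium.

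Part of the cell cycle genes fell. Of 24 genes of G2 and mitosis, 15 fell and 0 rose, with a median log2 fold change of -0.63. Mki67, the proliferation marker, was at 223, 190.2 and 163 CPM in High against 335, 328 and 347 CPM in HiMed (log2 fold change -0.81 ± 0.11, adjusted p = 8.1e-05). Cenpe, a kinetochore motor gene, was at 30.6, 31.3 and 26.4 CPM in High against 53.1, 54.6 and 60.7 CPM in HiMed (log2 fold change -0.93, adjusted p = 1.1e-05). Of 22 genes of DNA replication, 6 fell, among them Mcm4, a subunit of the replicative helicase, at 32.7, 30.5 and 30.03 CPM in High against 57.5, 46.3 and 55.9 CPM in HiMed (log2 fold change -0.78, adjusted p = 3.5e-04), and 0 rose. Without High replicate 3, 10 of the G2 and mitosis genes were called lower. Cytosolic ribosomal protein genes fell together, 63 of 85 lower and 0 higher, with a median log2 fold change of -0.45. Rplp1, the member with the largest loss of TPM, was at 723, 721 and 602 CPM in High against 897, 1008 and 935 CPM in HiMed (log2 fold change -0.47, adjusted p = 0.0179). Its call was lost without High replicate 3 or HiMed replicate 2 (highest adjusted p = 0.0935). Their summed level ran from 81819.5 to 100102 TPM in High and from 115925 to 124598 TPM in HiMed. Of 13 mitochondrially encoded genes 4 fell, including mt-Atp6, an ATP synthase subunit gene (log2 fold change -0.77, adjusted p = 4.3e-04), and mt-Co1, a cytochrome oxidase subunit gene (log2 fold change -0.45, adjusted p = 0.00939). The call of mt-Co1 was lost in all 3 fits on log2 TPM (highest adjusted p = 0.423) and that of mt-Atp6 on unfiltered log2(TPM + 1) (highest adjusted p = 0.0632). Members called lower numbered 7 with the replicate number as a block. Of 16 glycolysis genes 7 fell. For lower members the count was 4 without High replicate 3.

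**Figure D5:**
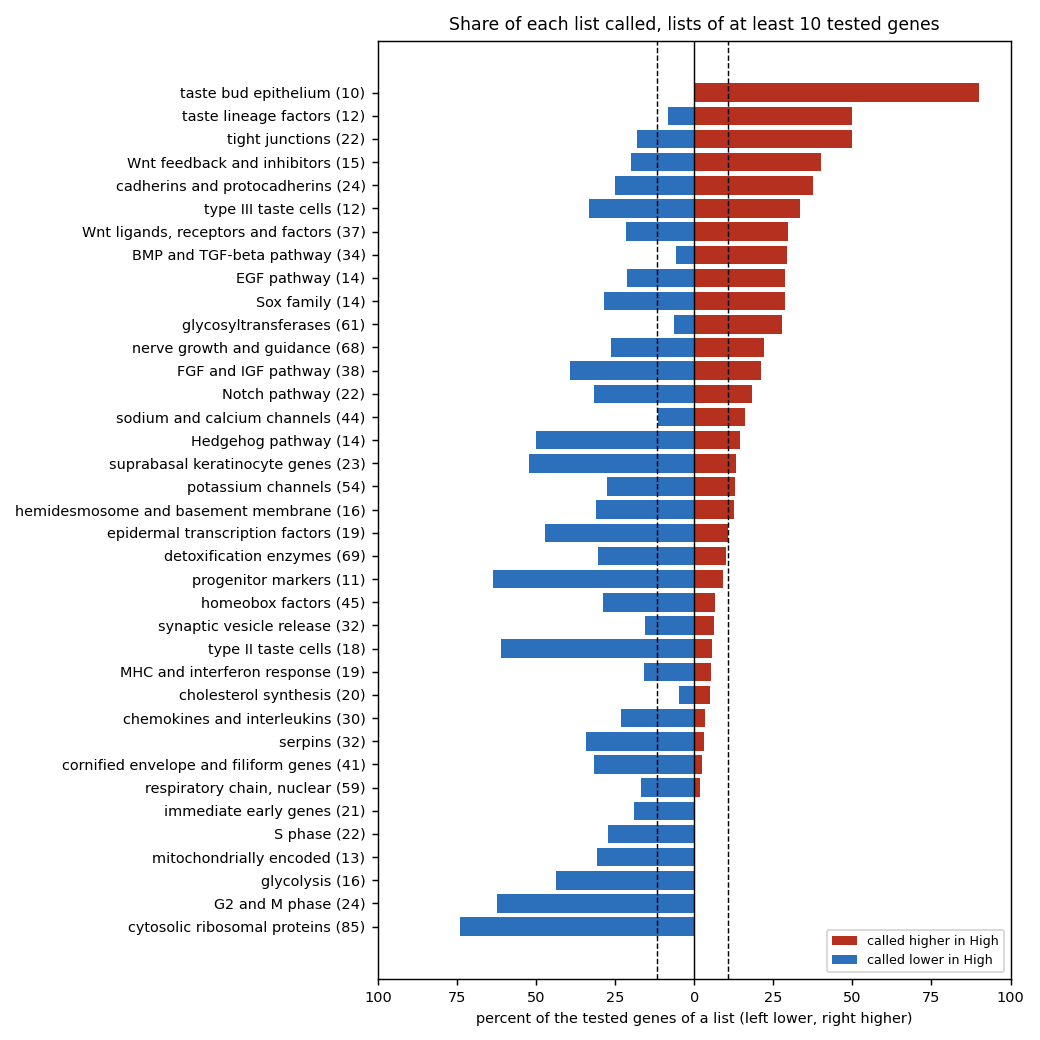
Share of the tested genes of each list that were called higher (right) or lower (left) in High, in percent, with the number tested after each name; dashed lines are the shares over all genes, 10.6% higher and 11.7% lower. Taste bud epithelium lies furthest to the right of the lists with at least 10 genes, and the ribosomal protein genes furthest to the left.

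The genes with the largest gains included receptors and a transporter. Ptpro, a receptor tyrosine phosphatase gene, was at 15.04, 11.3 and 17.7 CPM in the High libraries and 0, 0.219 and 0.0181 CPM in the HiMed libraries (log2 fold change 7.63 ± 1.22, adjusted p = 0.00101). Rxfp3, a relaxin-family peptide receptor gene, was at 14.1, 6.75 and 20.7 CPM in High against 0.421, 0.273 and 0.181 CPM in HiMed (log2 fold change 5.57, adjusted p = 1.2e-05). Adgrd1, an adhesion G protein-coupled receptor gene, was at 16.5, 8.87 and 29.2 CPM in High against 0, 0.684 and 0.579 CPM in HiMed (log2 fold change 5.42, adjusted p = 0.00305). Slc9a3, a sodium-hydrogen exchanger gene, was at 32.95, 22.9 and 79.4 CPM in High against 0.28, 1.23 and 1.99 CPM in HiMed (log2 fold change 5.25, adjusted p = 0.00548). These 4 genes were at 1.99 CPM or less in every HiMed library. Jam2, a junctional adhesion molecule gene, was at 12.4, 9.36 and 21.5 CPM in High against 0.467, 0.438 and 0.887 CPM in HiMed (log2 fold change 4.57, adjusted p = 1.6e-04). Ror1, a Wnt-binding receptor gene, was at 7.97, 6.17 and 16.3 CPM in High against 0, 0.438 and 0.779 CPM in HiMed (log2 fold change 4.60, adjusted p = 0.00167). Arsi, a sulfatase gene, was at 75.99, 50.6 and 121 CPM in High against 2.97, 2.22 and 5.18 CPM in HiMed (log2 fold change 4.56, adjusted p = 4.4e-05). The 3 genes were likewise higher in every High library, with replicate 3 the highest. In TPM the gains were led, after Ecm1, by the calcium-binding protein gene S100a6, at 3955 ± 1201 TPM in High and 804 ± 86.2 TPM in HiMed (mean ± SD, n = 3). The stress-response gene Nupr1 followed at 2046 ± 822 TPM in High and 222 ± 82.1 TPM in HiMed. The chemokine gene Cxcl14 was at 1488 ± 541 TPM in High and 100.3 ± 18.4 TPM in HiMed.

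The genes that lost most included one at 0 in all High libraries. Krt32, a hair and filiform papilla keratin gene, had no count in High and was at 2.87, 18.7 and 10.7 CPM in the HiMed libraries, at least 537-fold higher there against a floor of 3 counts over the 3 libraries (adjusted p = 5.5e-04). Slpi, a secreted protease inhibitor gene, was at 0, 0.326 and 1.35 CPM in High against 14.1, 59.8 and 80.1 CPM in HiMed (log2 fold change -6.49, adjusted p = 0.00159). With limma on voom it was not called (highest adjusted p = 0.141). Aqp4, a water channel gene, was at 0, 0.87 and 0 CPM in High against 10.7, 14.9 and 14.1 CPM in HiMed (log2 fold change -5.44, adjusted p = 0.006). With the 6 High and HiMed libraries alone Aqp4 was not called (highest adjusted p = 0.0544). H19, an imprinted non-coding RNA gene, was at 0.225, 0.979 and 0.12 CPM in High against 14.4, 38.2 and 19.1 CPM in HiMed (log2 fold change -5.68, adjusted p = 2.4e-04). All 4 of these genes had their lowest HiMed value in replicate 1. Barx2, a homeobox gene, was at 2.32, 1.89 and 1.14 CPM in High against 29.3, 76.5 and 47.03 CPM in HiMed (log2 fold change -4.84 ± 0.39, adjusted p = 3.4e-05). It was 1 of 13 homeobox genes of 45 that fell, against 3 that rose. The count of lower members was 7 without High replicate 3 and 8 without HiMed replicate 2. Irx4 had no count in High and was at 0.514, 0.246 and 0.453 CPM in HiMed, after 16.7, 18.1 and 12.7 CPM in MedLow. Its call was lost on log2(TPM + 1), filtered or not, and with the 6 High and HiMed libraries alone (highest adjusted p = 0.2925). The neutrophil-attracting chemokine genes Cxcl3 and Cxcl5 fell, while Cxcl14 rose. Cxcl3 was at 1.49, 0.743 and 0.458 CPM in High against 29.6, 37.7 and 44.998 CPM in HiMed (log2 fold change -5.40 ± 0.43, adjusted p = 5.5e-06). Cxcl5 was at 2.45, 1.81 and 1.26 CPM in High against 49.5, 67.01 and 82.8 CPM in HiMed (log2 fold change -5.18 ± 0.42, adjusted p = 1.8e-05).

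From MedLow to HiMed, 7.33% of genes were called higher and 6.30% lower, and most changes of the last step had not been called there. Of the 1846 genes that rose, 535 had also risen from MedLow to HiMed (29.0%), 71 had fallen (3.85%) and 1240 were not called there (67.2%). Of the 2040 that fell, 541 had fallen before (26.5%), 121 had risen (5.93%) and 1378 were not called (67.5%). The HiMed libraries enter both steps, so the 2 steps are not independent. By the test of the difference between the steps, 271 genes rose more (1.55% of genes tested) and 383 fell more (2.20%) than in the step before. The largest differences among those higher in High were of Ror1 (step difference 7.98 ± 1.49, adjusted p = 0.0108) and Rxfp3 (7.20 ± 1.06, adjusted p = 0.00129). They were followed by Arsi (5.06 ± 0.76, adjusted p = 0.004), Lgals12, a galectin gene (4.60 ± 0.70, adjusted p = 0.00144), and Entpd2. Of the genes with the largest negative step differences, A2m, a protease inhibitor gene, had climbed from 2.21, 1.49 and 1.69 CPM in Low to 1092, 656 and 787 CPM in the HiMed libraries and was at 252, 285 and 109.7 CPM in the High libraries (step difference -5.91 ± 0.81, adjusted p = 0.00478). Ppbp, a chemokine gene, was at 27.2, 28.2 and 78.01 CPM in MedLow, 43.97, 88.6 and 161 CPM in HiMed and 3.96, 8.81 and 1.93 CPM in High (step difference -5.45 ± 1.23, adjusted p = 0.043). The fall of A2m was not called without High replicate 1 or 3, or HiMed replicate 1 or 3 (highest adjusted p = 0.0675). Both had their highest values in the HiMed bin, as Gli1 and Ptch1 did.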

How the data were processed

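RNA-seq of 12 libraries (4 reporter bins of 3) was used as deposited. The authors' table holds expected counts per gene and a second table TPM; the submitters' processing notes name Salmon 1.4.0, DESeq2 1.28.1 and build mm39 without their roles. Expected counts were rounded, filtered with filterByExpr (minimum count 10; 17432 of 52670 symbols kept, the rest holding 0.0339% of counts) and scaled by TMM. edgeR 4.0.16 quasi-likelihood tests with robust moderation (R 4.3.3) were fitted on all 12 libraries with 1 term a bin, contrasting High with HiMed, and that step with the HiMed minus MedLow step; Benjamini-Hochberg adjusted p below 0.05 was called. CPM uses TMM-scaled totals. DESeq2 1.42.0, limma 3.58.1 on voom and log2(TPM + 1), other filters and scalings, a replicate block and leaving out each High or HiMed library were alternatives. No MedLow or Low library was left out, so how far the step difference rests on single MedLow libraries was not tested. On simulated counts of High against HiMed (16755 genes), 100 genes were changed by 1 on the log2 scale and 100 by 2. Of these, 48% and 68% were recovered, with 3 false calls. Far fewer genes were changed there than were called in the data, so these rates need not hold for the data.

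Same-numbered High and HiMed libraries deviated together, with correlations of 0.243, 0.265 and 0.179 over 9402 genes against -0.188 to -0.040 for other pairs. Deviations were taken from the mean of each bin, so they cancel within a bin. Positive values for same-numbered pairs thus force negative values among the others, which are no separate evidence. Same-numbered libraries were taken as pairs from the positive correlations alone, though the labels give the numbers and no reason for a link. The main test has no term for the number, so its p-values ignore this pairing. With the number as a block, 1997 genes were higher and 2191 lower, and the step difference called 1186. No 2 libraries agreed within sampling noise.

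Members of the comparison, gene lists and tests were chosen with earlier results of these data known. Genes were named by rule: Sox2 and eGFP, up to 15 a direction by fold among called genes with bins apart and at least 10 CPM, up to 10 a direction by TPM and by step difference, up to 8 called members a list, and uncalled list members by their values. Named outside that rule, after their values were seen, were Bdnf, Epcam, Gnat3, Gstt1, Ocln, Sprr2a1 and Tjp3. Promoter windows are from RefSeq, GRCm38.p6. A few list members that the rule names are not reported here, though the counts of their lists include them.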

Additional observations from a re-analysis of the deposited data

How the results depend on the processing

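Under 18 alternatives the count of genes higher in High stayed within 1.5 times the 1846 of the main test, and with the replicate number as a block 1997 genes were higher and 2191 lower. The count of lower genes (2040) moved further to 1058 on log2(TPM + 1), 1089 on log2(TPM + 0.1), 845 on unfiltered log2(TPM + 1) and 1294 with the 6 High and HiMed libraries alone; the TPM fits called 65.5%, 63.6% and 68.4% of genes higher, against 47.5%. Leaving out 1 High or HiMed library gave 1287 to 1750 higher and 1499 to 2007 lower genes. The step difference was less stable: its 889 calls became 1376 with DESeq2 (550 positive), and 525, 395 and 285 in the 3 TPM fits, of which 303, 246 and 149 were negative, with 149 and 136 positive on log2(TPM + 0.1) and unfiltered log2(TPM + 1). Without HiMed replicate 3 it called 464 genes, 169 positive and 295 negative, and without HiMed replicates 1 and 2 the positive calls were 196 and 197. Leaving out 1 High or HiMed library gave 464 to 1118 calls in all, 169 to 411 positive and 295 to 707 negative. The cause was not tested, and no MedLow library was left out. Of 179 called genes that are named, 139 were called in every alternative that tested them and 40 were lost in at least 1, with no change of sign. The uncalled Cldn8 changed sign to 0.064 on log2(TPM + 1), filtered or not, and 0.0663 on log2(TPM + 0.1), and ran from -0.143 to 0.0877 without single libraries. The block ended the calls of Slc1a3 (adjusted p = 0.0866) and Trpm5 (adjusted p = 0.05002) and no other call of a named gene. List medians changed sign in some alternatives for FGF and IGF, potassium channels, sodium and calcium channels, vesicle release, hemidesmosome, cholesterol synthesis, Merkel and melanocyte genes. Depth limits genes near the floor of 3 counts a bin, 0.0200 CPM in High and 0.0223 CPM in HiMed.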

Other observations

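Genes of cell contact changed in both directions. Of 22 tight junction genes, 11 rose and 4 fell, with a median log2 fold change of 0.52 against -0.01 over all genes. Cldn3, a sealing claudin gene, was at 101, 88.4 and 176 CPM in the High libraries and 26.004, 33.9 and 37.7 CPM in the HiMed libraries (log2 fold change 1.90 ± 0.30, adjusted p = 0.00145, edgeR quasi-likelihood test with Benjamini-Hochberg adjustment). Cldn1, the main claudin of the epidermal barrier, was at 17.4, 18.6 and 21.1 CPM in High against 42.99, 62.9 and 55.9 CPM in HiMed (log2 fold change -1.50, adjusted p = 3.0e-06). Ocln, which encodes occludin, rose (log2 fold change 0.55, adjusted p = 0.00362) and so did the scaffold gene Tjp3 (log2 fold change 0.76, adjusted p = 0.00211). Among cadherins and desmosomal genes, 9 of 24 rose and 6 fell. Pcdh15, a protocadherin gene of sensory hair cells, was at 49.6, 29.8 and 73.3 CPM in High against 1.66, 2.02 and 3.95 CPM in HiMed (log2 fold change 4.31, adjusted p = 1.8e-04). Dsg2, a desmosomal cadherin gene of simple epithelium, was at 169, 127 and 201 CPM in High against 68.3, 64.3 and 74.8 CPM in HiMed (log2 fold change 1.26, adjusted p = 7.9e-06). Cdh3, the basal P-cadherin gene, was at 73.8, 73.04 and 42.3 CPM in High against 148, 139.7 and 131 CPM in HiMed (log2 fold change -1.15, adjusted p = 2.9e-04).

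Glycosyltransferase genes, whose products build the sugar chains of surface and secreted proteins, gave 17 higher and 4 lower of 61. With 1 High or HiMed library left out, 12 to 16 members were called higher. Members called lower numbered 2 without High replicate 3 and 2 without HiMed replicate 2. Galnt15, which starts O-linked chains, was at 13.4, 6.15 and 15.6 CPM in High against 0.584, 0.438 and 0.561 CPM in HiMed (log2 fold change 4.46 ± 0.73, adjusted p = 5.0e-04). St6gal1, a sialyltransferase gene, was at 41.9, 23.4 and 43.1 CPM in High against 4.49, 3.28 and 3.37 CPM in HiMed (log2 fold change 3.28, adjusted p = 7.9e-06). St8sia2, which makes polysialic acid, was at 27.2, 22.4 and 21.6 CPM in High against 3.15, 0.711 and 1.94 CPM in HiMed (log2 fold change 3.61, adjusted p = 0.0194). Its call was lost with DESeq2, without a filter on low counts and without High replicate 1 or 2 or 3, or HiMed replicate 2 or 3 (highest adjusted p = 0.0774). The bins stayed apart in all 3 genes. Detoxification enzymes gave 7 higher and 21 lower of 69, where 10.6% of all genes tested were higher and 11.7% lower. The share of higher members was thus near that of all genes. Aldh1a1, which makes retinoic acid, was at 184, 148 and 287 CPM in High against 7.69, 9.87 and 16.97 CPM in HiMed (log2 fold change 4.16, adjusted p = 6.0e-04). Its close copy Aldh1a7 was at 27.4, 30.4 and 35.7 CPM in High against 4.11, 3.86 and 6.19 CPM in HiMed (log2 fold change 2.72, adjusted p = 2.6e-05), so reads may be shared between them. Cyp4b1, a cytochrome P450 gene, was at 1.396, 2.61 and 0.956 CPM in High against 10.3, 10.4 and 10.03 CPM in HiMed (log2 fold change -2.62, adjusted p = 1.1e-05). Gstt1, a glutathione transferase gene, was at 0.72, 1.43 and 0.797 CPM in High against 3.55, 5.28 and 4.998 CPM in HiMed (log2 fold change -2.22, adjusted p = 0.00103).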
